A study of Homo sapiens with 12 samples.

Results

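The core subunits of the cullin-RING ubiquitin ligases were examined together with SKP2 and BTRC, the F-box proteins through which the CUL1 ligase meets many of its substrates. The 10 genes, CUL1, CUL2, CUL3, CUL4A, CUL4B, CUL5, RBX1, SKP1, SKP2 and BTRC, were taken by gene name. All 10 were listed among the 29657 genes of the SCC15 table and the 31055 genes of the SCC25 table, and all 10 had a mean of at least 10 normalized counts and were tested in both cell lines. SKP2 and BTRC are among the ligase genes that the study itself singled out in these libraries, so their direction here is not independent evidence of it.

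A cullin-RING ligase is built on a cullin, an elongated scaffold that holds the RING protein RBX1 at one end and a substrate receptor at the other. RBX1 recruits the ubiquitin-conjugating enzyme, and SKP1 joins CUL1 to an F-box protein, which binds the substrate. Attachment of the ubiquitin-like protein NEDD8 to the cullin switches the ligase on, and the COP9 signalosome removes it. SKP2 is known for marking the cell cycle inhibitor p27 for degradation, and BTRC for marking the NF-kappaB inhibitor IkappaB-alpha and beta-catenin.

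The RNA came from SCC15 and SCC25, established lines of head and neck squamous cell carcinoma labelled as wild type, in 3 libraries per treatment and line (12 in all). One group of each line received annonaceous acetogenins (ACGs in the labels) for 24 h, and the study names the compound as squamocin, a member of that class, which is known to inhibit mitochondrial Complex I. The other group of each line received the solvent DMSO, and no other agent or allele is named for any group. The labels do not say whether replicates were separate cultures, so p-values measure only the spread between these libraries, which may be technical, and each line stands for itself alone.

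The values are reads per gene after division by a size factor of the library, which the authors set within each line, and are called normalized counts here. Each library held 16665563 to 22748845 reads on genes, as recovered from its values. Replicates of a group differed by a chi-square per degree of freedom of 1.72 to 11.0, except in both pairs that hold squamocin replicate 3 of SCC15, at 71.6 and 63.5. Several results that move with that library are therefore also given without it, though not every value. All 9 squamous epithelial markers reached 10 normalized counts in DMSO-treated SCC25 cells. In DMSO-treated SCC15 cells the defining markers KRT5 (9.50 ± 4.04) and DSG3 (1.44 ± 1.31) did not (SD, n = 3). TP63 (17.5 ± 5.04) and EPCAM (11.4 ± 0.824) lay close to that level in SCC15, beside 4512 and 2942 in SCC25. The other markers were not lost in SCC15. KRT14, PKP1 and KRT6A averaged 759, 406 and 134 there with DMSO, beside 372, 127 and 97.8 in SCC25. CDH1 and SFN averaged 525 and 2424, beside 5204 and 5157 in SCC25. The summed markers of SCC15 lay at 4225 to 4399 with DMSO and 6012 to 9430 with squamocin, with SFN the largest part (means of 2424 and 4443). Those of SCC25 lay at 24594 to 24761 and 37310 to 38623. PTPRC, which defines leukocytes, averaged 3.05 in DMSO-treated SCC15 cells and was not listed for SCC25. Of 6 immune markers 4 were listed for SCC15 and 5 for SCC25, of 5 endothelial markers 3 and 5, and all 6 fibroblast markers were listed for both. The summed immune markers went from 335 to 427 with DMSO to 19.1 to 32.2 with squamocin in SCC25 (CD14 alone from a mean of 351 to 4.81), and the endothelial ones from 235 to 296 to 19.8 to 37.7. In SCC15 the immune markers summed to 499 to 541 and 320 to 506 (CD14 alone from a mean of 504 to 379), and the endothelial markers to 164 to 181 and 66.1 to 77.5. Fibroblast markers summed to 708 to 784 and 482 to 486 in SCC15, and to 766 to 810 and 1073 to 1228 in SCC25, where COL1A1 alone went from a mean of 576 to 938 and PDGFRB from 189 to 168. The part of these markers in the changes below was not tested, and in bulk RNA fewer cells of a type and less RNA per cell cannot be told apart.

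The stretches just upstream of RBX1, SKP1 and SKP2 are shown because these genes carry the opposite movements described below. They were read from RefSeq promoter windows on GRCh38.p14, in transcript orientation and ended before the start of the gene in the deposited tables, with capitals marking the letters GGGCGG (a GC box, CCGCCC on the other strand) and CACGTG (an E-box). The windows lie at chr22:40951128-40951346 on the plus strand for RBX1, chr5:134177039-134177200 on the minus strand for SKP1 and chr5:36151861-36151988 on the plus strand for SKP2.
RBX1: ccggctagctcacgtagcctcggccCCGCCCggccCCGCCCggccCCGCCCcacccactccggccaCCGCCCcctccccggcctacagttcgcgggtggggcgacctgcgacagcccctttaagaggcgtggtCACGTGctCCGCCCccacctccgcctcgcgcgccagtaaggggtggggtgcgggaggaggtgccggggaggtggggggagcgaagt
SKP1: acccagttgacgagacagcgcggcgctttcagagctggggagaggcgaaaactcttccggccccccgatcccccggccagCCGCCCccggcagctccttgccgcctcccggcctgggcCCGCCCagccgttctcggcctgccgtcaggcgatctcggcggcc
SKP2: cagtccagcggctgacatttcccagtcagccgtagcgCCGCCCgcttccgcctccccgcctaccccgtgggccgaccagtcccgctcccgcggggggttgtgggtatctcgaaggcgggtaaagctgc

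The stretch of RBX1 held 5 GC boxes and 1 E-box, that of SKP1 2 GC boxes and that of SKP2 1. On either strand of the full windows, a GC box stood before all 9 of the genes that have a window (all but BTRC), in 12 of their 22 windows, against 45.0% of the 35116 windows of all genes. An E-box was found for CUL4B, CUL5 and RBX1, in 3 of the 22 windows, and is in 7.26% of all windows. The letters TGACGTCA (1.85% of all windows) and TGATGCAA (0.866%) were in 0 of the 22. Genes that rose and genes that fell shared the GC box, and such matches are a description of the letters only.

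The 10 genes did not move together. In SCC15 cells, 3 were higher with squamocin than with DMSO (CUL4B, RBX1 and SKP1), 6 were lower (CUL1, CUL2, CUL3, CUL5, SKP2 and BTRC) and CUL4A did not pass the test (limma, on log2 values with 1 added to each normalized count, adjusted over all genes, threshold 0.05). Among all 15902 genes tested in that line, 30.9% were called higher and 30.0% lower. In SCC25 cells, the same 3 were higher, CUL1, SKP2 and BTRC were lower and 4 did not pass the test, against 38.3% called higher and 38.5% lower among all 16539 tested. Thus 3 genes were higher and 3 lower in both lines, where 22.1% and 18.6% of the 14454 genes tested in both were. The median log2 fold change of the 10 genes was -0.69 in SCC15 and -0.09 in SCC25, beside 0.01 and -0.01 over all genes tested. Both sides of the split were thus near the shares of all genes in SCC25, and in SCC15 the 6 of 10 lower genes stood against 30.0% of all genes.

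**Figure D1:**
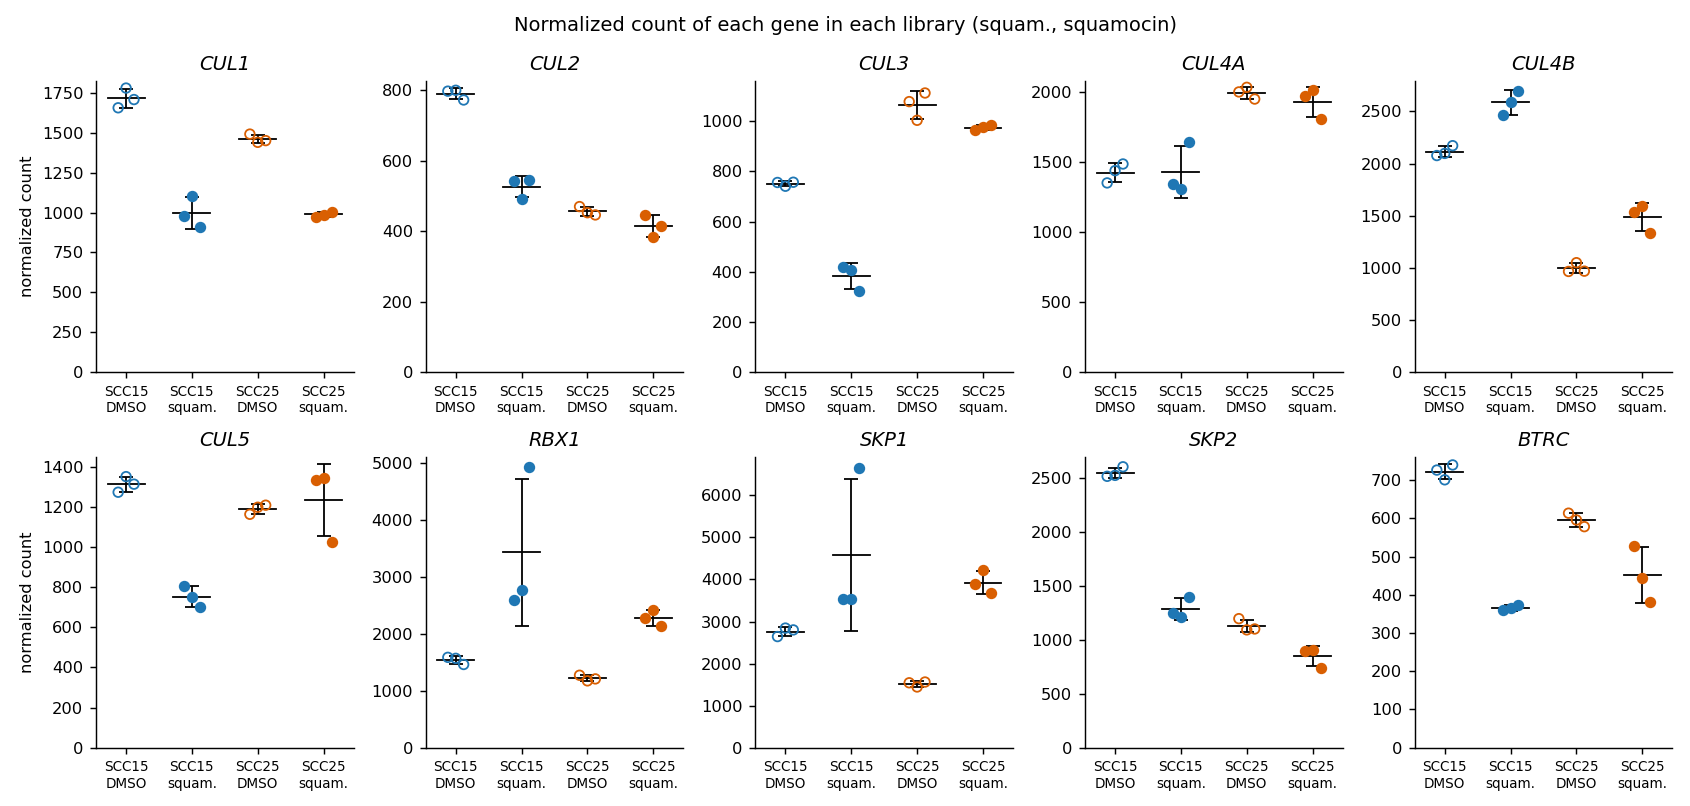
Normalized count (vertical axis, from 0) of the 10 genes in each of the 12 libraries, open circles for DMSO and filled circles for squamocin, blue for SCC15 and orange for SCC25, with the mean and SD of 3 libraries in black. RBX1 and SKP1 lay higher with squamocin in both lines, with squamocin replicate 3 of SCC15 far above its group at 4921 and 6658, and CUL1, SKP2 and BTRC lay lower in both.

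CUL1, the scaffold of the ligases that use F-box proteins, stood at 1658, 1781 and 1709 normalized counts with DMSO and at 981, 1103 and 908 with squamocin in SCC15. In SCC25 it stood at 1493, 1441 and 1452 with DMSO and at 974, 988 and 1007 with squamocin. Every squamocin library lay below every DMSO library in both lines. As a log2 fold change, CUL1 gave -0.79 (standard error, SE, 0.097, adjusted p = 0.000441, limma) in SCC15 and -0.56 (SE 0.048, adjusted p = 2.9e-07, limma) in SCC25. CUL1 lies on chromosome 7, from 148697914 to 148801036 in the coordinates of the tables (GRCh38).

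The other scaffolds that fell in SCC15 did not pass the test in SCC25. CUL3, which works with BTB-domain receptors, gave 756, 741 and 757 with DMSO and 418, 406 and 325 with squamocin in SCC15, which is -0.98 as a log2 fold change (SE 0.12, adjusted p = 0.000376, limma). In SCC25 it gave 1078, 1004 and 1113 against 965, 975 and 984, which did not overlap, for -0.13 (adjusted p = 0.053, limma). The SCC25 value of CUL3 lies at the threshold, and scaling by TMM (adjusted p = 0.0301, limma), edgeR on the recovered reads (adjusted p = 0.04997) and leaving out squamocin replicate 3 or DMSO replicate 2 (adjusted p = 0.0288 and 0.0304, limma) put it inside. CUL5, a scaffold that works with elongin and SOCS-box receptors, gave 1272, 1349.6 and 1312 with DMSO and 806, 751 and 699 with squamocin in SCC15, which is -0.80 as a log2 fold change (SE 0.087, adjusted p = 0.000265, limma). In SCC25 the CUL5 groups overlapped, at 1162, 1197 and 1207 against 1332, 1341 and 1025, for 0.04 (95% interval -0.15 to 0.23, adjusted p = 0.679, limma). Squamocin replicate 3 decided that value, and without it CUL5 was called higher in SCC25 at 0.17 (adjusted p = 0.00217, limma). CUL2, the scaffold of the ligase that carries the von Hippel-Lindau protein, gave 798, 800.1 and 773 against 543, 492 and 545 in SCC15, which is -0.59 as a log2 fold change (SE 0.086, adjusted p = 0.000947, limma). In SCC25 CUL2 gave 469.9, 452 and 446 against 446, 385 and 415, for -0.14 (95% interval -0.30 to 0.03, adjusted p = 0.116, limma), and without squamocin replicate 1 it was called at -0.19 (adjusted p = 0.048, limma).

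The paralogs CUL4A and CUL4B, both scaffolds of ligases that use the adaptor DDB1, behaved differently. CUL4B, on the X chromosome (120524609 to 120575794), gave 2076, 2097 and 2171 with DMSO and 2464, 2594 and 2699 with squamocin in SCC15. In SCC25 it gave 965, 1049 and 968 with DMSO and 1534, 1589 and 1336 with squamocin. The groups did not overlap in either line, and the change was 0.29 on the log2 scale (SE 0.079, adjusted p = 0.0151, limma) in SCC15 and 0.58 (SE 0.068, adjusted p = 5.77e-06, limma) in SCC25. The SCC15 call was lost without any 1 of its DMSO libraries (adjusted p from 0.055 to 0.0717, limma). CUL4A, on chromosome 13 (113208193 to 113267108), gave 1352, 1439.8 and 1488 against 1341, 1306 and 1647 in SCC15, with a 95% interval of -0.26 to 0.26 on the log2 scale. In SCC25 it gave 2003, 2036 and 1952 against 1970.1, 2016 and 1809, with an interval of -0.16 to 0.06. The groups of CUL4A overlapped in both lines. CUL4A overlaps PCID2 on the opposite strand, and the strand setting of the counting is not given in the sources used here, so reads of the shared stretch cannot be assigned to either gene with certainty. PCID2 went from an average of 645 to 1037 in SCC15 and from 1196 to 2103 in SCC25.

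RBX1, the RING subunit shared by most cullins (chromosome 22, 40951347 to 40973309), was higher with squamocin in both lines. In SCC15 it gave 1587, 1569 and 1461 normalized counts with DMSO and 2599, 2769 and 4921 with squamocin. In SCC25 it gave 1273, 1174 and 1208 with DMSO and 2285, 2421 and 2135 with squamocin. The squamocin libraries lay above all DMSO libraries, and replicate 3 of SCC15 lay far above the other 2 of its group. On the log2 scale RBX1 changed by 1.09 (SE 0.23, adjusted p = 0.00466, limma) in SCC15, or 0.80 (adjusted p = 1.75e-11, limma) without that library, and 0.90 (SE 0.056, adjusted p = 1.31e-08, limma) in SCC25.

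SKP1, the adaptor between CUL1 and the F-box proteins (chromosome 5, 134148935 to 134177038), moved the same way. Its values were 2643, 2845 and 2801 with DMSO and 3529, 3539 and 6658 with squamocin in SCC15. They were 1544, 1445 and 1562 with DMSO and 3888, 4223 and 3673 with squamocin in SCC25, where the mean rose 2.59-fold. SKP1 thus rose while the cullin it binds fell, and in SCC15 the same library stood apart as for RBX1. On the log2 scale SKP1 changed by 0.66 (SE 0.24, adjusted p = 0.0423, limma) in SCC15 and 1.37 (SE 0.056, adjusted p = 2.9e-10, limma) in SCC25. Without squamocin replicate 3 the SCC15 value was 0.36 (adjusted p = 5.48e-07, limma), and without any 1 of the DMSO libraries the call was lost (adjusted p from 0.0951 to 0.116, limma). TCF7, which overlaps SKP1 on the opposite strand, held 4.54% of its level in SCC15 and 9.04% in SCC25.

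SKP2, the F-box protein that recognises p27 (chromosome 5, 36151989 to 36184319), was lower with squamocin in both lines. In SCC15 it gave 2517, 2525 and 2605 with DMSO and 1251, 1208 and 1397 with squamocin, a ratio of means of 0.504. In SCC25 it gave 1197, 1093 and 1101 with DMSO and 901, 904 and 741 with squamocin, a ratio of 0.751. BTRC, the F-box protein that recognises IkappaB-alpha (chromosome 10, 101354033 to 101557321), moved alongside. It gave 726, 701 and 739 with DMSO and 359, 365 and 373 with squamocin in SCC15, a ratio of 0.507. In SCC25 it gave 613, 595 and 578 with DMSO and 527, 444 and 382 with squamocin, a ratio of 0.757. The groups of both genes were separate in each line. The log2 fold changes of SKP2 were -0.99 (SE 0.087, adjusted p = 0.000105, limma) in SCC15 and -0.42 (SE 0.078, adjusted p = 0.000311, limma) in SCC25. Those of BTRC were -0.98 (SE 0.082, adjusted p = 9.04e-05, limma) and -0.41 (SE 0.1, adjusted p = 0.00226, limma). With 3 libraries against 3 in an exact permutation test, each gene whose groups were separate reached the smallest p that the design allows, 0.1.

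**Figure D2:**
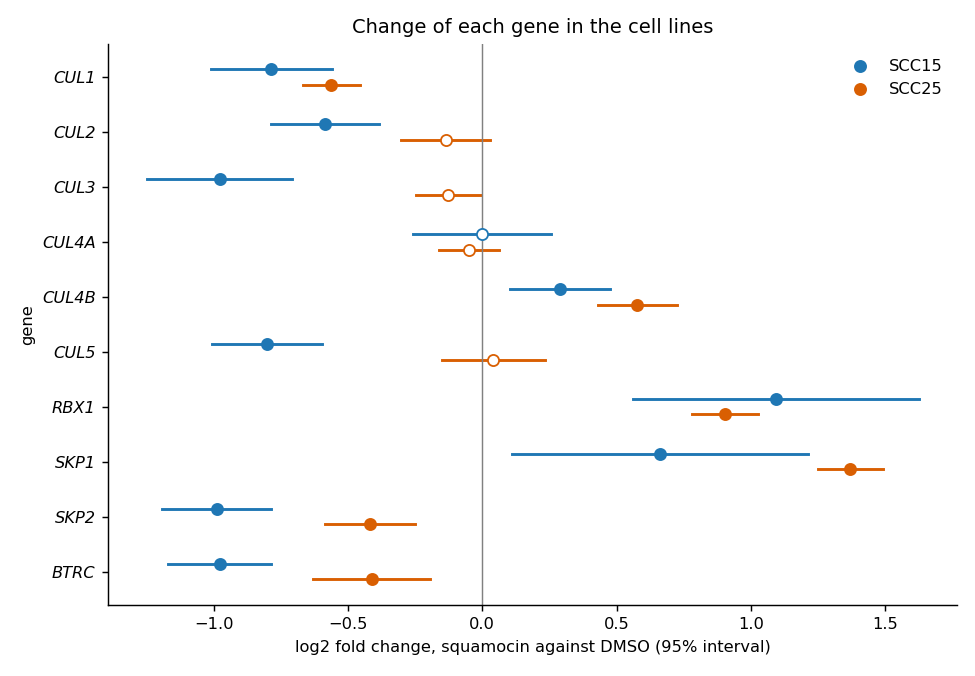
Log2 fold change of squamocin against DMSO (horizontal axis) with its 95% interval from limma for each of the 10 genes, blue for SCC15 and orange for SCC25, filled where the adjusted p was under 0.05. RBX1, SKP1 and CUL4B lay to the right of 0 in both lines and CUL1, SKP2 and BTRC to the left, while CUL3 and CUL5 were at -0.98 and -0.80 in SCC15 and near 0 in SCC25.

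SKP2 and BTRC had nearly the same profile over the 12 libraries. When each gene was set relative to the DMSO mean of its own line on the log2 scale, the root mean square difference between them was 0.07, and BTRC was the second closest of 12035 protein-coding genes to SKP2. SKP2 was the closest to BTRC. The others nearest to SKP2 were TSPYL1, GOPC, BRCC3 and IL1R1, and those nearest to BTRC were LRRC8D, VPS37B, METTL8 and RRP1B. As a ratio, the reads of SKP2 per read of BTRC were 3.53 ± 0.070 and, after squamocin, 3.51 ± 0.22 in SCC15. In SCC25 they were 1.90 ± 0.058 and 1.89 ± 0.17 (SD, n = 3, exact permutation p = 0.9 and 1 in the 2 lines). The ratio restates the same likeness, and 3 libraries against 3 cannot show that it was constant. The likeness describes these libraries, which were also those in which the study found both genes.

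Ratios of reads within a library do not depend on how libraries are scaled to each other. Reads of RBX1 per 100 reads of the 6 cullins went from 19.0 ± 1.13 with DMSO to 51.1 ± 18.2 with squamocin in SCC15, and from 17.0 ± 0.702 to 32.4 ± 0.769 in SCC25 (SD, n = 3). Reads of SKP1 per read of CUL1 went from 1.61 ± 0.025 to 4.71 ± 2.28 in SCC15 and from 1.04 ± 0.037 to 3.97 ± 0.31 in SCC25, a change of the mean of 2.93-fold and 3.83-fold. Each squamocin library thus held more adaptor reads per scaffold read than each DMSO library. On the side of the receptors, reads of SKP2 per 100 of SKP1 went from 92.3 ± 3.28 to 30.2 ± 8.0 in SCC15 and from 74.5 ± 3.64 to 21.6 ± 1.52 in SCC25. Those of BTRC per 100 of SKP1 went from 26.2 ± 1.44 to 8.70 ± 2.68 and from 39.3 ± 2.14 to 11.5 ± 1.80. Reads of CUL4B per read of CUL4A went from 1.48 ± 0.045 to 1.82 ± 0.17 in SCC15 and from 0.498 ± 0.017 to 0.768 ± 0.026 in SCC25. The groups of these 5 ratios were separate in both lines (exact permutation p = 0.1, the smallest possible). Without squamocin replicate 3 of SCC15, RBX1 per cullin read was still 2.14-fold higher and SKP1 per CUL1 read 2.11-fold higher in that line.

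**Figure D3:**
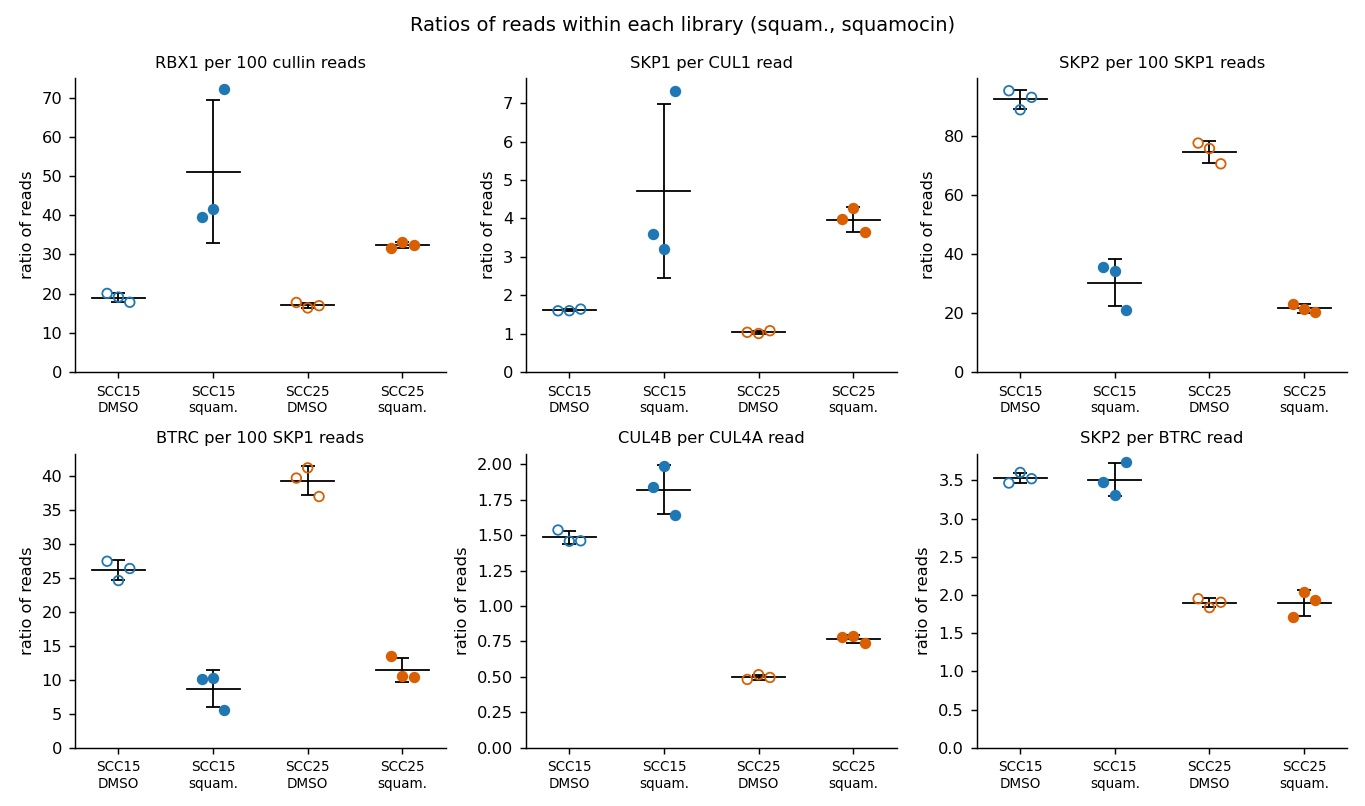
Ratios of reads between genes within each library (vertical axis, from 0), open circles for DMSO and filled for squamocin, blue for SCC15 and orange for SCC25, with the mean and SD of 3 libraries in black. RBX1 per 100 cullin reads and SKP1 per CUL1 read were higher in every squamocin library, and SKP2 and BTRC per 100 SKP1 reads were lower. SKP2 per BTRC read averaged 3.53 with DMSO and 3.51 with squamocin in SCC15.

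The signed log2 fold change was lower in SCC15 than in SCC25 for 7 of the 10 genes by a limma contrast of the 4 group means. Such a difference in that direction was found for 26.0% of the 14454 genes tested in both lines. A lower value here is a larger fall or a smaller rise. CUL3 and CUL5 differed most, with -0.85 (SE 0.13, adjusted p = 0.000131) and -0.84 (SE 0.14, adjusted p = 0.000244, limma) on the log2 scale. SKP2 and BTRC, which fell in both lines and further in SCC15, differed by -0.57 each (adjusted p = 0.00188 and 0.00494, limma), and CUL2 by -0.45 (adjusted p = 0.00443, limma). SKP1 and CUL4B, which rose in both lines, rose less in SCC15, by -0.71 (adjusted p = 0.0356) and -0.29 (adjusted p = 0.0388, limma). These last 2 calls depended on single libraries, with SKP1 at -1.01 without squamocin replicate 3 of SCC15 (adjusted p = 1.79e-09) and losing the call without 10 of the 12 libraries in turn (largest adjusted p = 0.0846), and CUL4B losing it without 9 (largest adjusted p = 0.0968, limma). For CUL1 (-0.22, 95% interval -0.45 to 0.00), CUL4A (0.05, -0.22 to 0.32) and RBX1 (0.19, -0.35 to 0.73) no difference passed the test, although CUL1 did without squamocin replicate 2 of SCC15 (-0.30, adjusted p = 0.0205, limma).

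Levels of different genes were compared per kilobase of the canonical transcript of GENCODE release 44, as normalized counts of DMSO-treated cells within a line. RBX1 was the most abundant, at 1317 ± 58.1 per kilobase in SCC15 and 1042 ± 42.9 in SCC25 (SD, n = 3). In SCC15 SKP2 followed at 686 ± 13.1, then CUL1 at 545 ± 19.7, CUL4B at 358 ± 8.42, SKP1 at 294 ± 11.3, CUL4A at 245 ± 11.8, CUL5 at 212 ± 6.29, CUL2 at 189 ± 3.64, BTRC at 119.9 ± 3.28 and CUL3 at 111 ± 1.33. In SCC25 CUL1 followed at 464 ± 8.65, then CUL4A at 343 ± 7.25, SKP2 at 304 ± 15.5, CUL5 at 193 ± 3.85, CUL4B at 168 ± 8.08, SKP1 at 162 ± 6.75, CUL3 at 158 ± 8.23, CUL2 at 109 ± 2.94 and BTRC at 98.9 ± 2.93. CUL4B, SKP1 and CUL3 of SCC25 lay within about an SD of their neighbours and have no firm order. With squamocin SKP1 was second in both lines, at 487 ± 192 and 418 ± 29.6. The order depends on the length used, and per kilobase of all annotated exons SKP2 came sixth in SCC15 and eighth in SCC25 with DMSO, while RBX1 came first and CUL1 second in both lines.

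As a share of the summed cullin levels per kilobase, CUL1 went from 32.8% ± 0.615 to 24.3% ± 2.41 in SCC15 and from 32.4% ± 0.504 to 23.5% ± 1.52 in SCC25 (SD, n = 3). CUL4B went from 21.5% ± 0.471 to 33.5% ± 1.03 in SCC15 and from 11.7% ± 0.561 to 18.7% ± 0.822 in SCC25. With these lengths it had the largest share in squamocin-treated SCC15 cells, but per kilobase of all annotated exons its share there was 11.2% ± 0.483 (6.40% ± 0.174 with DMSO) and that of CUL1 was the largest, at 35.1% ± 3.13 (42.3% ± 0.564 with DMSO). CUL3 went from 6.70% ± 0.207 to 4.35% ± 0.627 in SCC15 and stood at 11.0% ± 0.600 and 10.8% ± 0.615 in SCC25. CUL5 went from 12.8% ± 0.144 to 9.35% ± 0.806 in SCC15 and stood at 13.4% ± 0.332 and 14.9% ± 1.51 in SCC25. With either length the mean share of CUL1 was lower and that of CUL4B higher with squamocin in each line, while the mean share of CUL5 was lower in SCC15 and higher in SCC25.

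The genes that fell in SCC15 are mostly long ones, and of these CUL1, BTRC and SKP2 alone were also called lower in SCC25. CUL1, CUL2, CUL3, CUL5 and BTRC span 82.1 to 203 kb, CUL4A and CUL4B 58.9 and 51.2 kb, and RBX1 and SKP1 22.0 and 28.1 kb, while SKP2 fell with a span of 32.3 kb. Over the 10 genes, Spearman's rho of span and log2 fold change was -0.64 in SCC15 and -0.60 in SCC25, as a description of genes that share the same libraries. Over all tested protein-coding genes it was -0.21 in SCC15 (12766 genes) and -0.01 in SCC25 (13095 genes). With these genes in 10 equal parts by span, the median log2 fold change in SCC15 went from 0.39 in the part of the shortest genes to -0.27 in that of the longest. The change beyond the median of genes of a like span was -0.77 for CUL3, -0.71 for BTRC, -0.59 for CUL5, -0.58 for CUL1 and -0.45 for CUL2 in SCC15. It was -1.05 for SKP2, 0.98 for RBX1 and 0.60 for SKP1. In SCC25 the change beyond that median was -0.52 for CUL1, -0.33 for BTRC, -0.19 for CUL2, -0.09 for CUL3 and 0.08 for CUL5. For SKP2, RBX1 and SKP1 it was -0.43, 0.98 and 1.36 in SCC25. The library that stood apart in SCC15 differed along the same axis, since the median of squamocin replicate 3 relative to replicates 1 and 2 was 0.51 on the log2 scale in the part of the shortest genes and -0.16 in that of the longest. For SKP1 and RBX1 that deviation was 0.91 and 0.88, and for CUL3 and CUL1 -0.34 and -0.20. The part of gene span in the changes was not tested.

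The authors' size factors leave the summed normalized counts higher with squamocin, with medians of 20826159 against 15511759 in SCC15 and 21182014 against 18272805 in SCC25. With all libraries set to equal totals instead, the median log2 fold change of all tested genes moved to -0.48 in SCC15 and -0.22 in SCC25, and 14.8% of genes were called higher and 50.5% lower in SCC15, 30.4% and 47.4% in SCC25. On that scale CUL4B turned to -0.21 in SCC15 and CUL5 to -0.17 in SCC25, and SKP1 no longer passed the test in SCC15 at 0.16 (adjusted p = 0.446, limma). CUL4A was then called lower in both lines, at -0.50 (adjusted p = 0.00134) and -0.26 (adjusted p = 0.000358, limma), as were CUL2 and CUL3 in SCC25, at -0.34 and -0.33 (adjusted p = 0.00113 and 0.000125, limma). Among the other genes named below, CUL7, FBXW7, NEDD8, UBE2F and ELOC also lost their SCC15 calls on that scale, at 0.13 to 0.39. Relative to the median of all genes on that scale, the changes in SCC15 were 0.27 for CUL4B, 1.08 for RBX1, 0.64 for SKP1, -0.80 for CUL1, -1.01 for SKP2 and -0.99 for BTRC.

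The counts of the lists below are to be read against all genes tested, of which 30.9% rose and 30.0% fell in SCC15 and 38.3% rose and 38.5% fell in SCC25. Of the 5 other cullins and RING subunits, 3 rose and 1 fell in SCC15 cells, while 2 rose and 1 fell in SCC25 cells. RNF7, the RING protein that pairs with CUL5, rose with RBX1, from 1193 ± 41.2 to 3191 ± 901 in SCC15 and from 772 ± 12.3 to 2189 ± 129.8 in SCC25 (SD, n = 3), with log2 fold changes of 1.38 and 1.5 (adjusted p = 0.000553 and 9.9e-11, limma). ANAPC11, the RING subunit of the anaphase-promoting complex, rose by 1.14 and 0.67 on the log2 scale (adjusted p = 0.0044 and 5.53e-07, limma), while its cullin-like partner ANAPC2 fell by 0.33 and 0.38 (adjusted p = 0.0453 and 1.11e-05, limma). The SCC15 call of ANAPC2 was lost without squamocin replicate 2 or any 1 of the DMSO libraries (largest adjusted p = 0.146, limma), and without squamocin replicate 3 its value was -0.21 (adjusted p = 0.0019, limma). The RING subunits thus rose with squamocin, while their cullin and cullin-like partners went different ways. ANAPC2 and CUL1 fell in both lines, CUL4B rose in both (0.29 and 0.58) and CUL4A was not called in either. CUL5, the partner of RNF7, was at -0.80 in SCC15 and 0.04 in SCC25. CUL7 rose in SCC15, by 0.71 (adjusted p = 0.00131, limma), and was at -0.04 in SCC25 (adjusted p = 0.564, limma), where it was called at -0.11 without squamocin replicate 3 (adjusted p = 0.0422, limma). CUL9 did not pass the test in either, at -0.29 and 0.08. Without squamocin replicate 3 its SCC15 value was -0.043 (adjusted p = 0.555, limma), and with equal library totals it was called at -0.79 (adjusted p = 0.0314, limma).

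Of 12 adaptors and receptors of the other cullins, 5 rose and 3 fell in SCC15 cells, while 4 rose and 6 fell in SCC25 cells. ELOC, the elongin that joins CUL2 and CUL5 to their receptors, was the only one higher in both, by 0.85 and 0.91 on the log2 scale (adjusted p = 0.011 and 4.69e-09, limma). The receptors SOCS3 and ASB6 were lower in both, SOCS3 by -0.23 and -0.86 and ASB6 by -0.23 and -0.51 (adjusted p from 3.33e-09 to 0.0494, limma). In SCC15 both calls were lost without any 1 library other than squamocin replicate 3 (largest adjusted p = 0.165 for SOCS3 and 0.16 for ASB6, limma).

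Of 9 F-box proteins and cofactors of SKP2 and BTRC, 5 rose and 2 fell in SCC15 cells, while 6 rose and 1 fell in SCC25 cells. CKS1B, the small protein that SKP2 needs to bind p27, rose where SKP2 fell, from 1707 ± 40.9 to 4767 ± 1738 in SCC15 and from 1968 ± 23.4 to 4541 ± 337 in SCC25 (SD, n = 3), with log2 fold changes of 1.42 and 1.20 (adjusted p = 0.00121 and 5.15e-10, limma). Its paralog CKS2 rose by 0.96 and 1.68. FBXW7, the F-box protein that recognises cyclin E and MYC, rose by 0.62 and 0.95 (adjusted p = 0.00196 and 5.09e-08, limma), and its reads per 100 of SKP2 went from 11.5 ± 0.734 to 35.3 ± 5.54 in SCC15 and from 53.7 ± 2.39 to 140.3 ± 24.7 in SCC25. F-box receptors of the same CUL1 ligase thus went opposite ways. The study singled out FBXW7, like SKP2 and BTRC, in these same libraries, so their opposite directions are not independent evidence. FBXW11, the paralog of BTRC, did not pass the test in either line, at -0.10 (adjusted p = 0.307) and 0.14 (adjusted p = 0.0617, limma). In SCC25 it was called higher without squamocin replicate 3 (0.21, adjusted p = 0.000499, limma) or DMSO replicate 1 (0.18, adjusted p = 0.041, limma), and in SCC15 lower with equal library totals (-0.60, adjusted p = 0.0033, limma). FBXL18 fell by 1.48 and 0.96 (adjusted p = 0.00351 and 6.03e-07, limma). Without squamocin replicate 3 the SCC15 values were 0.77 for CKS2 and -1.11 for FBXL18, both still called (largest adjusted p = 3.96e-09, limma).

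Of 12 genes of neddylation, 6 rose and 4 fell in SCC15 cells, while 9 rose and 3 fell in SCC25 cells, so that the falls were near or under the shares of all genes. NEDD8, the modifier itself, rose by 0.89 in each line (adjusted p = 0.0172 and 1.94e-07, limma), although in SCC15 the call was lost without any 1 of the DMSO libraries (largest adjusted p = 0.0539, limma). UBE2F, the conjugating enzyme that serves CUL5 with RNF7, rose by 0.81 and 1.21, with the SCC15 call lost without DMSO replicate 1 (adjusted p = 0.0522, limma). DCUN1D3, a member of the family that helps NEDD8 onto cullins, rose by 1.14 and 2.15, from 536 ± 20.7 to 1192 ± 162 and from 292 ± 5.04 to 1297 ± 80.8 (SD, n = 3). SENP8, the protease that matures NEDD8, fell by 1.62 and 1.02, from 59.4 ± 9.09 to 18.5 ± 0.220 and from 82.2 ± 8.14 to 40.4 ± 7.53. The 4 changes had adjusted p from 2.3e-11 to 0.0172 (limma).

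All 10 subunits of the COP9 signalosome were higher with squamocin in SCC15, with a median log2 fold change of 0.63, where 30.9% of all genes were, and 6 were higher and 2 lower in SCC25, with a median of 0.36, where 38.3% and 38.5% were. COPS8 rose by 0.75 and 1.14 and COPS2 by 0.84 and 0.67 (adjusted p from 1.63e-09 to 0.00049, limma). With equal library totals, 2 of the 10 rose and 0 fell in SCC15 cells (14.8% and 50.5% of all genes), while 5 rose and 3 fell in SCC25 cells (30.4% and 47.4%), so that the rises in SCC15 were then near the share of all genes.

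Of 11 exchange factors, inhibitors and partner enzymes, 6 were higher and 2 lower in SCC15, and of the 10 tested in SCC25, 8 were higher and 2 lower. CAND1, which exchanges the receptors on cullins, fell by 0.45 and 0.22 on the log2 scale, from 3951 ± 71.0 to 2883 ± 49.5 and from 3827 ± 22.0 to 3293 ± 62.4 (SD, n = 3, adjusted p = 0.00167 and 0.000228, limma). The ubiquitin-conjugating enzymes that work with SKP1-CUL1 ligases rose, CDC34 by 1.41 and 1.06 and UBE2R2 by 0.94 and 0.74 (adjusted p from 4.35e-09 to 0.000383, limma). Without squamocin replicate 3, the SCC15 log2 fold changes were 1.16 for RNF7, 0.84 for ANAPC11, 1.14 for CKS1B, 0.58 for ELOC, 0.56 for NEDD8, 0.58 for UBE2F and 1.21 for CDC34, and all of these 7 were still called higher (largest adjusted p = 8.02e-05, limma).

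Transcripts of substrates were counted as well. Of 8 substrates of SKP2, 5 rose and 1 fell in SCC15 cells, while 4 rose and 4 fell in SCC25 cells. The CDK inhibitor genes CDKN1C and CDKN1A rose in both lines, CDKN1C by 3.66 and 2.47 and CDKN1A by 1.25 and 2.81 on the log2 scale, and TOB1 rose by 1.17 and 1.16 (adjusted p from 1.13e-13 to 0.00011, limma). ORC1, a subunit of the replication origin complex, fell by 0.29 and 1.45 (adjusted p = 0.0469 and 2.36e-08, limma), and in SCC15 its call was lost without either of squamocin replicates 1 and 2 or DMSO replicates 2 and 3 (largest adjusted p = 0.187, limma). Of 10 substrates of BTRC, 6 rose and 2 fell in SCC15 cells, while 7 rose and 3 fell in SCC25 cells. PER1, a component of the circadian clock, rose from 741 ± 49.2 to 8009 ± 1681 and from 884 ± 16.9 to 11087 ± 1292, and NFKBIA, which encodes IkappaB-alpha, from 4974 ± 137 to 24251 ± 4541 and from 7727 ± 108 to 40833 ± 362 (SD, n = 3, adjusted p from 3.1e-14 to 2.75e-05, limma). CDC25A, the phosphatase that opens S phase, fell by 1.48 and 1.26 (adjusted p = 2.72e-05 and 2.26e-05, limma). Of the other substrates introduced above, CDKN1B, which encodes p27, rose by 0.23 and 0.84 (adjusted p = 0.0396 and 4.48e-08, limma). CTNNB1, which encodes beta-catenin, was at 0.26 in SCC15 and -0.26 in SCC25 (adjusted p = 0.0308 and 5.01e-05, limma). Both were named after their values were seen, and their calls under the alternatives are not given here. Protein levels were not measured by these libraries.

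Because SKP2 is known as a gene of cycling cells, 12 proliferation genes were counted beside it, of which 2 rose and 6 fell in SCC15 cells, while 4 rose and 8 fell in SCC25 cells. MKI67 fell by 1.36 and 0.43 on the log2 scale (adjusted p = 0.000794 and 0.000291, limma), and was at -1.12 in SCC15 without squamocin replicate 3 (adjusted p = 2.92e-15, limma). The helicase genes MCM2 and MCM3 changed by -0.93 and -0.70 in SCC15, and in SCC25 by -3.56 and -2.68, while SKP2 fell more in SCC15. CCNA2, which encodes cyclin A, rose by 0.33 and 1.11 (adjusted p = 0.0196 and 1.64e-09, limma), but the SCC15 call was lost without any 1 of the DMSO libraries and the value turned to -0.17 with equal library totals. PCNA stood at -0.38 (adjusted p = 0.101) and -0.97 (adjusted p = 1.96e-07, limma), and without squamocin replicate 3 it was called in SCC15 at -0.60 (adjusted p = 7.54e-09, limma). Their part in the change of SKP2 was not tested.

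Of the 86 genes of these lists that were tested in both lines, 12 were called in opposite directions, of which SCC15 had the rise for 8 and the fall for 4, where 10.1% of all 14454 genes were, and 0 of the 10 core genes did so. The following were named after their values were seen. DDB1, the adaptor of CUL4A and CUL4B, was at 0.26 in SCC15 and -1.0 in SCC25, and VHL, a receptor of CUL2, at 1.00 and -0.24. DCUN1D1, which like DCUN1D3 helps NEDD8 onto cullins, was at -0.55 and 0.69. KCTD10, a receptor of CUL3, was at -0.67 and 0.48, or -0.47 in SCC15 without squamocin replicate 3. CDT1, a replication licensing factor and substrate of SKP2, was at 0.76 and -1.0, and REST, a repressor and substrate of BTRC, at -0.96 and 0.53. The difference between the lines passed the test for each of these 6 (adjusted p from 9.34e-08 to 0.000174, limma). The SCC15 call of DDB1 (adjusted p = 0.0456) was lost without any 1 library other than squamocin replicate 3 (largest adjusted p = 0.142, limma), and with equal library totals its value there was -0.24.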

How the data were processed

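RNA-seq of 12 libraries was used, 3 for each of 2 treatments in 2 cell lines, grouped by their labels. The authors aligned reads with HISAT2 2.0.5 and counted them with featureCounts 1.5.0-p3 (versions from the submitters' processing notes) on GRCh38. The deposited values are a signal per gene, namely reads scaled by the authors with 1 size factor for every library, each line on its own. The SCC25 headers call these values FPKM, but once the factor was divided out 100% of the values of every library came out whole (tolerance 0.01). The sources used here do not give the strand setting, the treatment of multiply mapped reads or the release of the gene models, and pseudogenes named for the 10 genes were not listed. The deposited tables also hold the authors' fold changes and p-values, which were not used.

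Genes with a mean of at least 10 were tested two-sided with limma 3.58.1 (R 4.3.3, eBayes with a trend) on log2 of the value plus 1, with Benjamini-Hochberg adjustment over all genes tested in a line and a threshold of 0.05. The lines were compared by a contrast of the 4 group means, in which the separate scaling cancels. Fold changes of low genes are understated on this scale. Ratios and single values were tested by exact permutation. Depth limits single values only by counting error, which intervals between libraries include. The 10 genes and all lists were chosen with earlier results of these data known. From each list, at most 4 genes called the same way in both lines were named by size of change, and CUL7, CUL9, RNF7, FBXW7, FBXW11, CKS1B, CAND1, NEDD8, MKI67, CCNA2 and PCNA whatever their values. CDKN1B, CTNNB1 and the genes named as called in opposite directions were named after their values were seen. RNF7 and FBXO5 are in 2 lists each. Alternatives were pseudocounts of 0.1 and 10, other filters, TMM, equal totals, count tests on the recovered reads with the authors' factors (edgeR 4.0.16, DESeq2 1.42.0), a block for the replicate number, leaving out 1 library at a time, a log2 change above 1 and protein-coding genes alone. Exonic lengths other than the canonical transcript, ratios of reads and the comparison by span were added after the data were seen. The scripts were tested on simulated data. The study's other experiments were not analysed here.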

Additional observations from a re-analysis of the deposited data

Results flagged for a closer look

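For 7 of the 10 genes the response to squamocin differed between the lines by the limma contrast, each with a lower log2 fold change in SCC15 than in SCC25. Among all 14454 genes tested in both lines, 26.0% were called lower in SCC15 in this way and 26.1% higher. The calls of SKP1 and CUL4B were lost without 10 and 9 of the 12 libraries in turn. The differences were -0.45 for CUL2, -0.85 for CUL3, -0.29 for CUL4B, -0.84 for CUL5, -0.71 for SKP1, -0.57 for SKP2 and -0.57 for BTRC (adjusted p from 0.000131 to 0.0388). CUL2, CUL3 and CUL5 were lower in SCC15 and did not pass the test in SCC25, SKP2 and BTRC were lower in both and CUL4B and SKP1 higher in both. In SCC15 the median change of all genes went from 0.39 to -0.27 with span, against 0.10 to -0.09 in SCC25, and its part in these differences was not tested. Dixon's test of a single far value was not run.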

How the results depend on the processing

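In each line CUL1, RBX1, SKP2 and BTRC kept their direction and call under all 16 alternatives, as did CUL2, CUL3 and CUL5 in SCC15 and CUL4B and SKP1 in SCC25, and the differences of CUL2, CUL3, CUL5, SKP2 and BTRC under all 22. With equal library totals, 1 gene was higher and 7 lower in SCC15, where 14.8% and 50.5% of all genes tested were. In SCC25, 6 were lower and CUL4B, RBX1 and SKP1 stayed higher, where 47.4% of all genes were lower and 30.4% higher. In both lines, 1 was higher and 6 lower, and the share of all genes in both was not counted on that scale. CUL4B (-0.21), CCNA2 (-0.17) and DDB1 (-0.24) then reversed in SCC15, CUL5 (-0.17), CUL9 (-0.13) and FBXW11 (-0.068) in SCC25, and the differences of CUL4A (-0.24) and RBX1 (-0.10) as well. Apart from this shared shift of all genes, the cause of these changes was not tested. CUL4A, near 0, turned to 0.00 with edgeR and DESeq2 in SCC15 (0.0049 and 0.0048), and its difference to -0.0042 with TMM. An absolute log2 fold change above 1 left 1 higher and 0 lower gene in each line (RBX1 in SCC15, SKP1 in SCC25) and 0 in both. With each library left out, the count of higher genes in SCC15 went from 1 to 3 and that in both lines from 1 to 3, CUL4A from -0.11 to 0.060 in SCC15, CUL5 from -0.025 to 0.17 and CUL7 from -0.11 to 0.015 in SCC25, and the differences of CUL4A from -0.058 to 0.11 and of RBX1 from -0.10 to 0.36. Equal replicate numbers did not pair the libraries (correlations of their deviations from -0.05 to 0.01). With the replicate block, CUL4B no longer passed the test in SCC15 (0.29, adjusted p = 0.057, limma), nor did its difference (-0.29, adjusted p = 0.0578, limma) or, in SCC15, ORC1, ANAPC2, SOCS3, ASB6 and DDB1 (adjusted p from 0.0536 to 0.13, limma), while FBXW11 did in SCC25 (0.14, adjusted p = 0.0363, limma), and calls went from 9694 to 9116 in SCC15. With all genes above 0, the difference of CUL4B (adjusted p = 0.0694) and the SCC15 calls of ORC1, ANAPC2, SOCS3, ASB6 and DDB1 were lost (adjusted p from 0.0603 to 0.0780, limma), with TMM that of DDB1 was (adjusted p = 0.155, limma) and PCNA passed (adjusted p = 0.0408, limma), and with edgeR the difference of SKP1 was lost (adjusted p = 0.0565). The 10 genes held 261 to 5351 reads per library, so counting error was small for each of them.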
